A study of Mus musculus with 8 samples.

Results

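The genes of glucose uptake, glycolysis, lactate handling and the response to low oxygen were followed in the stomach corpus of mice that carry an altered catalytic subunit of protein kinase A. They were chosen by name: 33 gene symbols found in the count table, which matched 34 of its 54532 rows because 2 rows are named Aldoa. All 34 rows were counted well enough to be tested.

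Polyadenylated RNA from the corpus, the body of the stomach, was sequenced from 4 mutant mice (Six2-Cre+/- PKAcaR fl/wt) and 4 control mice (Six2-Cre+/- PKAcaR wt/wt), 1 library per animal, none of them treated. All 8 were of a mixed C57BL/6 and CD1 background and carried the Six2-Cre transgene, so the groups differ in the single floxed PKAcaR allele of the mutants. Six2 encodes a homeobox factor of the mesenchyme, and where in the stomach the Cre acted cannot be read from these libraries. The labels used here give neither age nor sex.

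Glucose enters cells through the GLUT transporters of the Slc2a family, is phosphorylated by hexokinase, and is carried through the enzymes of glycolysis to pyruvate. Lactate dehydrogenase interconverts pyruvate and lactate, and monocarboxylate transporters of the Slc16a family move lactate across the membrane. HIF-1, whose oxygen-sensitive subunit is encoded by Hif1a, is the factor known for raising many of these genes when oxygen is low. In the normal corpus the acid-secreting parietal cells are rich in mitochondria and rely on oxidative metabolism.

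Levels are given as CPM, the reads of a gene relative to the library size scaled by TMM, and as deposited FPKM, which also divides by gene length, where one gene is compared with another. Library totals lay between 18184281 and 23814720 reads in mutants and between 18942308 and 22814152 reads in controls. The zymogen gene Pgc took 0.107% to 4.60% of the reads in mutants and 20.7% to 31.2% in controls. The choice of scaling matters: with the column totals in place of TMM the median of all genes moved up by 0.70 on the log2 scale. The part of Pgc in that shift was not tested. Prkaca, which encodes the altered kinase subunit, averaged 37.8 ± 1.86 CPM in mutants and 80.03 ± 4.04 CPM in controls (SD, n = 4 each). Mutant 2 stood apart, with a correlation of 0.8289 to 0.875 with the other mutants across genes, whereas the other mutants correlated with one another at 0.972 or more and the controls at 0.969 or more. Squamous keratinocyte markers of the forestomach summed to 721 CPM in mutant 3 and 271 CPM in control 3, against at most 3.46 CPM in every other library. Markers of chief cells, the zymogen cells of the corpus, were found in all libraries and summed to 996 to 41538 CPM in mutants and 297819 to 532893 CPM in controls. In whole tissue, fewer cells of a type and less RNA per cell cannot be told apart.

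Among these genes, 4 were higher and 6 were lower in mutant corpus at an adjusted p under 0.05 (edgeR's quasi-likelihood test, Benjamini-Hochberg over 15862 genes), and 24 rows were not called. The higher calls were Hk2, Pgm1, Pfkfb4 and Hif1a. The lower calls were Slc2a4, Ldhb, Pfkm, Pgam1, Pkm and Eno1. That is 11.8% of the rows higher, against 9.39% of all tested genes, and 17.6% lower, against 10.8% of all tested genes. The median log2 fold change was -0.10 over the 34 rows and 0.07 over all tested genes. In every called gene the 4 mutant values lay wholly on one side of the 4 control values, as did those of 4 genes that were not called. In all, mutants lay above controls in 6 rows, against 14.2% of all tested genes, and below them in 8, against 16.1%.

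The changes were of very unequal size. Slc2a4, Ldhb and Hk2 differed by 6-fold or more, and the other called genes by less than 4-fold. Pfkm and Pgam1 also kept their calls in each of the 8 fits that left out 1 library, as did those 3, whereas Pgm1, Pfkfb4, Hif1a, Pkm and Eno1 each lost theirs in at least 1. Without both control 3 and mutant 3, which held the forestomach markers, 1 row was higher and 2 were lower. Of all 16005 genes tested in that fit, 587 were higher and 823 were lower. Pfkm lost its call there (adjusted p = 0.0644, edgeR), while Slc2a4 and Hk2 kept theirs. Without mutant 2, 5 rows were higher (14.7%, against 15.2% of all tested genes) and 11 were lower (32.4%, against 18.3%). With column totals as library sizes, 16 were higher (47.1%, against 59.3%) and 2 were lower (5.88%, against 4.56%), and the 2 were Slc2a4 and Ldhb.

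**Figure D1:**
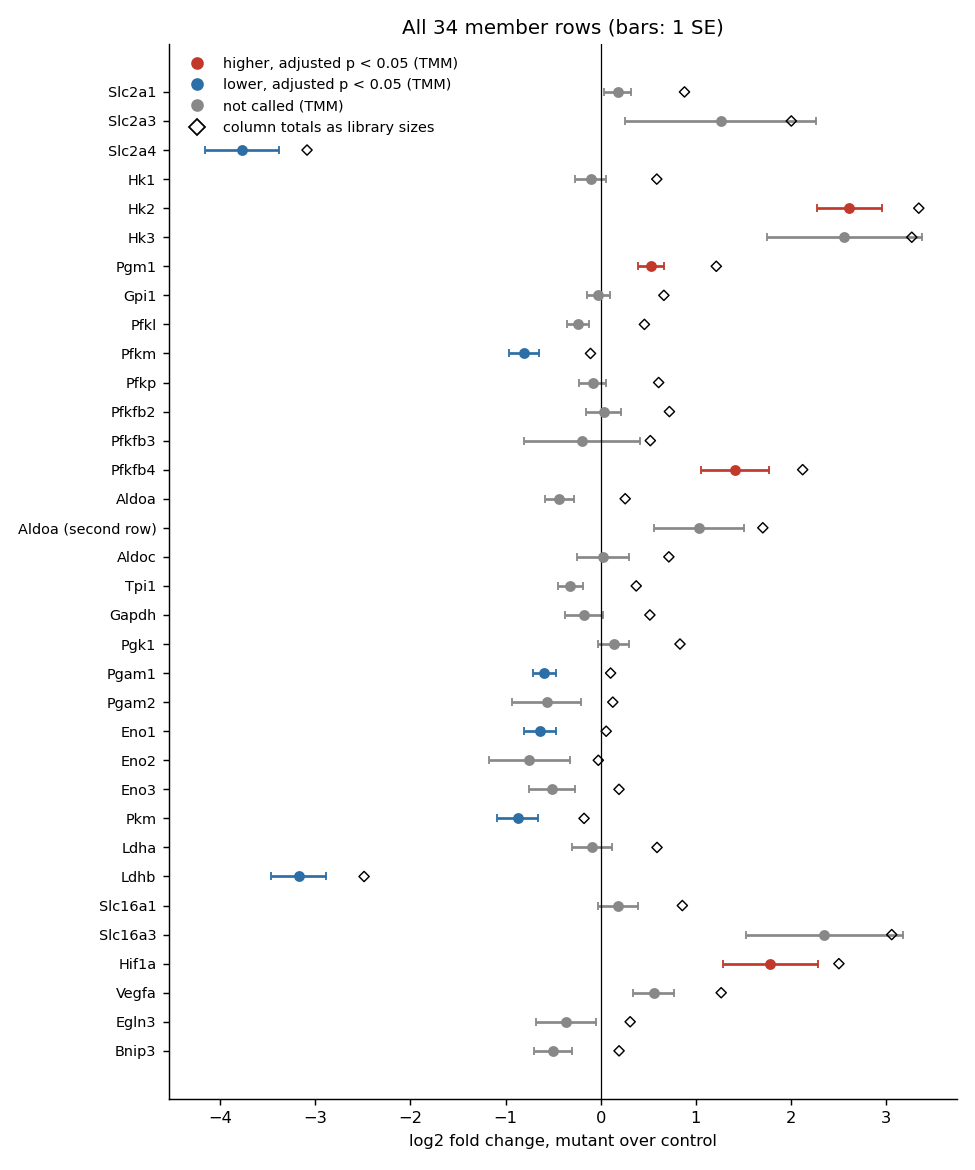
Log2 fold change, mutant over control, of all 34 rows in pathway order, with bars of 1 SE. Filled points are the TMM fit, coloured where the adjusted p was under 0.05, and open diamonds are the fit with column totals. Slc2a4, Ldhb and Hk2 lie far from 0 under both scalings, while Pgam1 and Eno1 lie below 0 with TMM and just above 0 with column totals.

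The clearest loss among the glucose transporters was of Slc2a4, which encodes GLUT4, the insulin-responsive transporter best known from muscle and fat (chromosome 11, 69942539 to 69948188, minus strand, in coordinates that match GRCm38). Slc2a4 was at 3.90, 2.73, 10.1 and 5.64 CPM in mutants 1 to 4, against 79.5, 69.0, 77.5 and 79.6 CPM in controls 1 to 4. No mutant came near a control, and the highest mutant value was mutant 3's. Slc2a4 thus had a log2 fold change of -3.77 with an SE of 0.39 and an adjusted p of 0.00132 (edgeR), a 13.7-fold lower level in mutants.

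Slc2a1 encodes GLUT1, the widely expressed basal transporter, and had the highest mean FPKM of the 3 over the 8 libraries, although Slc2a4 exceeded it in controls 1 and 4. Its values were 87.5, 97.2, 75.2 and 96.0 CPM in mutants, against 68.0, 96.8, 79.9 and 70.0 CPM in controls. The groups overlapped, and the log2 fold change of 0.18 (SE 0.14) did not pass the test (adjusted p = 0.403, edgeR); with column totals it was 0.88 and passed (adjusted p = 0.00224). Slc2a3, which encodes the high-affinity transporter GLUT3 of neurons and white blood cells, was at 1.60, 28.2, 1.59 and 1.62 CPM in mutants and at 3.95, 2.63, 4.33 and 2.87 CPM in controls. Mutant 2 alone was above the controls, and the other 3 mutants were below all of them. The log2 fold change was 1.26 (SE 1.01, adjusted p = 0.398) with all libraries, and -1.10 (SE 0.29, adjusted p = 0.0122) without mutant 2, so the direction turned on 1 library.

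Within a library, the share of each transporter in the summed FPKM of the 3 does not depend on scaling. Slc2a4 held 4.26%, 2.43%, 11.8% and 5.55% in mutants, against 53.4%, 41.5%, 48.8% and 52.9% in controls. Slc2a1 held 85.6% to 94.9% in mutants, against 45.3% to 57.8% in controls. Control corpus thus carried about as much Slc2a4 as Slc2a1 message per length, while in mutants Slc2a1 was 7.37 to 35.3 times as abundant as Slc2a4. The summed FPKM of the 3 was 24.5 to 32.2 in mutants and 42.6 to 47.3 in controls.

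Marker sums of several cell types were lower in mutants as well, though those of skeletal muscle overlapped between the groups. The chief cell markers given above had 4 of 7 lower. Parietal cell markers summed to 406 to 4027 CPM in mutants and 18936 to 25174 CPM in controls, with 8 of 10 lower. Gif, the intrinsic factor gene, was counted in both this list and that of chief cells, so their sums are not separate. Surface pit cell markers summed to 4284 to 35692 CPM in mutants and 45018 to 71183 CPM in controls. None of these 5 was called with all libraries, and 5 were lower without mutant 2. Smooth muscle markers summed to 299 to 873 CPM in mutants and 2962 to 3959 CPM in controls, with 8 of 8 lower. Adipocyte markers summed to 38.6 to 59.7 CPM in mutants and 101 to 195 CPM in controls, with 2 of the 3 tested lower and with Adipoq and Lep at 0 in mutants. Skeletal muscle markers summed to 11.3 to 56.4 CPM in mutants and 49.4 to 78.3 CPM in controls, with 1 of the 4 tested lower, Myh4 and Pvalb at 0 in both groups and Myh1 at 0 in mutants. The part of these cell types in the result was not tested.

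Of the 3 hexokinases, Hk2 rose while Hk1 did not pass the test. Hk2 encodes the inducible hexokinase of muscle, growing cells and many tumours (chromosome 6, 82725025 to 82774454, minus strand). It was at 94.2, 162, 60.6 and 117 CPM in mutants, against 11.3, 19.0, 23.9 and 16.6 CPM in controls. Every mutant exceeded every control, and the lowest mutant, mutant 3, was more than double the highest control. This gave a log2 fold change of 2.61 with an SE of 0.34 and an adjusted p of 0.00244 (edgeR), a 6.12-fold higher level in mutants. Markers of mucous neck cells and metaplasia were also higher in mutants, summing to 19706 to 34911 CPM, against 4059 to 7552 CPM in controls, with 10 of 10 higher. In mutants 1 to 4 they summed to 32413, 19706, 34911 and 33544 CPM. They were lowest in mutant 2, where Hk2 was highest, and highest in mutant 3, where Hk2 was lowest. Both they and Hk2 were higher in mutant 4 than in mutant 1. Cell cycle markers summed to 380, 418, 316 and 417 CPM in mutants, against 201 to 290 CPM in controls. Of the 8, 2 were higher. Cell cycle sums, like the neutrophil and macrophage marker sums given below, ranked the mutants in the same order as Hk2. The part of these cells, or of cell division, in the Hk2 values was not tested. The change in Hk2 ranged from 2.36 to 2.81 on the log2 scale when any 1 library was left out, and was 3.34 with column totals.

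Hk1, the constitutive isozyme, was at 197, 132, 122 and 143 CPM in mutants, against 166, 174, 146 and 152 CPM in controls. The ranges overlapped and the log2 fold change was -0.10 (SE 0.16, adjusted p = 0.684, edgeR), but 0.59 and called (adjusted p = 0.0214) with column totals. Hk3, known from myeloid cells, was at 2.90, 16.9, 1.42 and 2.18 CPM in mutants and at 0.764 to 1.13 CPM in controls. All mutants lay above all controls, with mutant 2 far ahead, yet the log2 fold change of 2.56 had an SE of 0.81 and an adjusted p of 0.0585; without mutant 2 it was 1.13 with an adjusted p of 0.0277. Unc5a overlaps Hk3 on the opposite strand and held 237% of its reads, and whether strand was used in counting is not stated, so the Hk3 count is uncertain.

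The hexokinase shares did not overlap between the groups. Hk2 held 39.8%, 57.5%, 40.8% and 53.1% of the summed hexokinase FPKM in mutants, against 8.73%, 13.4%, 18.8% and 13.3% in controls. Hk1 held 32.8% to 58.2% in mutants, against 80.2% to 89.9% in controls. Hk1 was 0.570 to 1.46 times as abundant per length as Hk2 in mutants and 4.26 to 10.3 times in controls, so in mutants 2 and 4 the inducible isozyme was the more abundant. The summed FPKM of the 3 was 24.8 to 46.9 in mutants and 20.7 to 23.6 in controls.

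**Figure D2:**
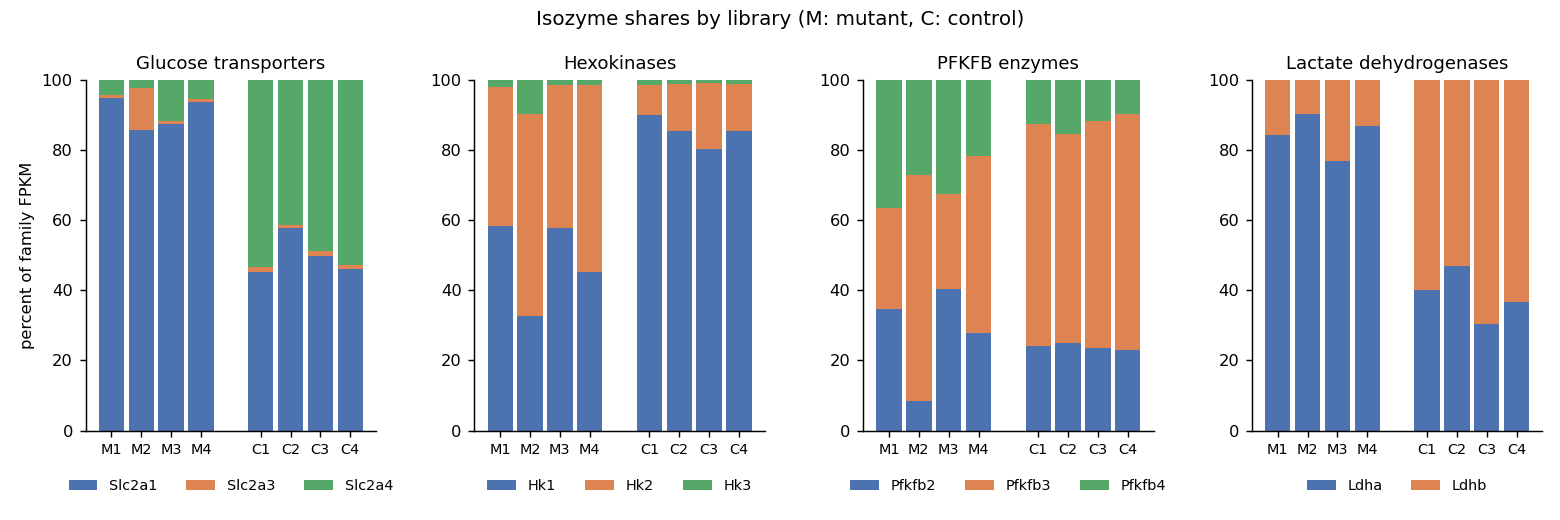
Share of each gene in the summed FPKM of its family, in percent, for each library (M1 to M4 mutants, C1 to C4 controls). The Slc2a4 and Ldhb shares are smaller in all 4 mutants than in any control and the Hk2 share is larger; mutant 2 differs from the other mutants in its Slc2a3, Hk3 and Pfkfb2 shares.

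Glucose 6-phosphate is drawn on or formed by phosphoglucomutase and passed on by glucose-6-phosphate isomerase. The row named Pgm1 lies on chromosome 5 (64092950 to 64128351, plus strand), where RefSeq places the gene it now calls Pgm2, whose human counterpart acts chiefly on phosphopentoses. It was at 74.8, 58.6, 57.6 and 71.8 CPM in mutants, against 45.2, 49.5, 37.5 and 49.97 CPM in controls. All mutants were above all controls by a modest step. Its log2 fold change was 0.53 (SE 0.14, adjusted p = 0.0291, edgeR), and it kept its call in 3 of the 8 fits that left out 1 library, losing it without control 1, 2 or 3 or mutant 1 or 4 (largest adjusted p 0.0785). The table's Pgm2 on chromosome 4, which RefSeq calls Pgm1 and which encodes the main phosphoglucomutase, also rose, to 67.4 ± 17.5 CPM in mutants against 32.2 ± 3.14 CPM in controls (log2 fold change 1.07, SE 0.19, adjusted p = 0.00725). Gpi1, the isomerase, was at 324 to 345 CPM in mutants and 306 to 387 CPM in controls (log2 fold change -0.03, SE 0.12, adjusted p = 0.889; 0.66 with column totals).

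Phosphofructokinase commits sugar to glycolysis, and the muscle-type subunit gene Pfkm was the one of 3 that fell (chromosome 15, 98092589 to 98132451, plus strand). Pfkm was at 33.4, 30.4, 29.0 and 19.8 CPM in mutants, against 48.9, 48.6, 50.7 and 48.5 CPM in controls. The controls were tightly grouped and all mutants were below them, mutant 4 the lowest. Pfkm had a log2 fold change of -0.80 (SE 0.16, adjusted p = 0.0106, edgeR); with column totals this was -0.11 and no longer passed (adjusted p = 0.575). Senp1 overlaps Pfkm on the opposite strand with 77.9% of its reads, which makes the Pfkm count uncertain.

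The liver-type subunit Pfkl, the most abundant of the 3, was at 143, 166, 135 and 142 CPM in mutants, against 192, 173, 163 and 163 CPM in controls. Only mutant 2 reached into the control range. Its log2 fold change of -0.24 (SE 0.11) did not pass the test (adjusted p = 0.164), passed without mutant 2 (-0.30, adjusted p = 0.0429), and was 0.46 with column totals. The platelet-type subunit Pfkp was at 68.9 to 99.98 CPM in mutants and 73.4 to 94.3 CPM in controls (log2 fold change -0.08, SE 0.14, adjusted p = 0.707; 0.61 with column totals), with Pitrm1 on the opposite strand at 41.8% of its reads. As shares of the family's FPKM, Pfkm held 17.1% to 27.3% in mutants against 29.2% to 33.7% in controls, and Pfkl held 58.6% to 62.3% in mutants against 54.1% to 57.3% in controls.

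The PFKFB enzymes set the level of fructose 2,6-bisphosphate, the strongest activator of phosphofructokinase. Pfkfb4 was the one that rose (chromosome 9, 108991778 to 109032228, plus strand). It was at 14.5, 28.9, 10.7 and 9.41 CPM in mutants, against 5.14, 6.64, 5.99 and 6.03 CPM in controls. All mutants were above all controls. Its log2 fold change was 1.41 (SE 0.36, adjusted p = 0.0276, edgeR) with all libraries and 0.95 (SE 0.19, adjusted p = 0.00317) without mutant 2, and the call was lost when any 1 control was left out (largest adjusted p 0.0855). Pfkfb3, which had the highest mean FPKM of the family over the 8 libraries but the lowest share in mutants 1 and 3, was at 17.6, 106, 13.8 and 33.95 CPM in mutants, against 40.2, 39.7, 51.3 and 65.3 CPM in controls. Mutants 1, 3 and 4 lay below all controls and mutant 2 above all of them. Pfkfb3 had a log2 fold change of -0.20 (SE 0.60, adjusted p = 0.839) with all libraries, and of -1.17 (SE 0.33, adjusted p = 0.0293) without mutant 2. Pfkfb2 was at 13.3 to 20.5 CPM in mutants and 14.7 to 21.3 CPM in controls (log2 fold change 0.03, SE 0.18, adjusted p = 0.918; 0.72 and called, adjusted p = 0.0105, with column totals), and Yod1 overlaps it on the opposite strand with 71.0% of its reads. The Pfkfb4 share of the family's FPKM was 21.7% to 36.6% in mutants and 9.66% to 15.5% in controls.

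**Figure D3:**
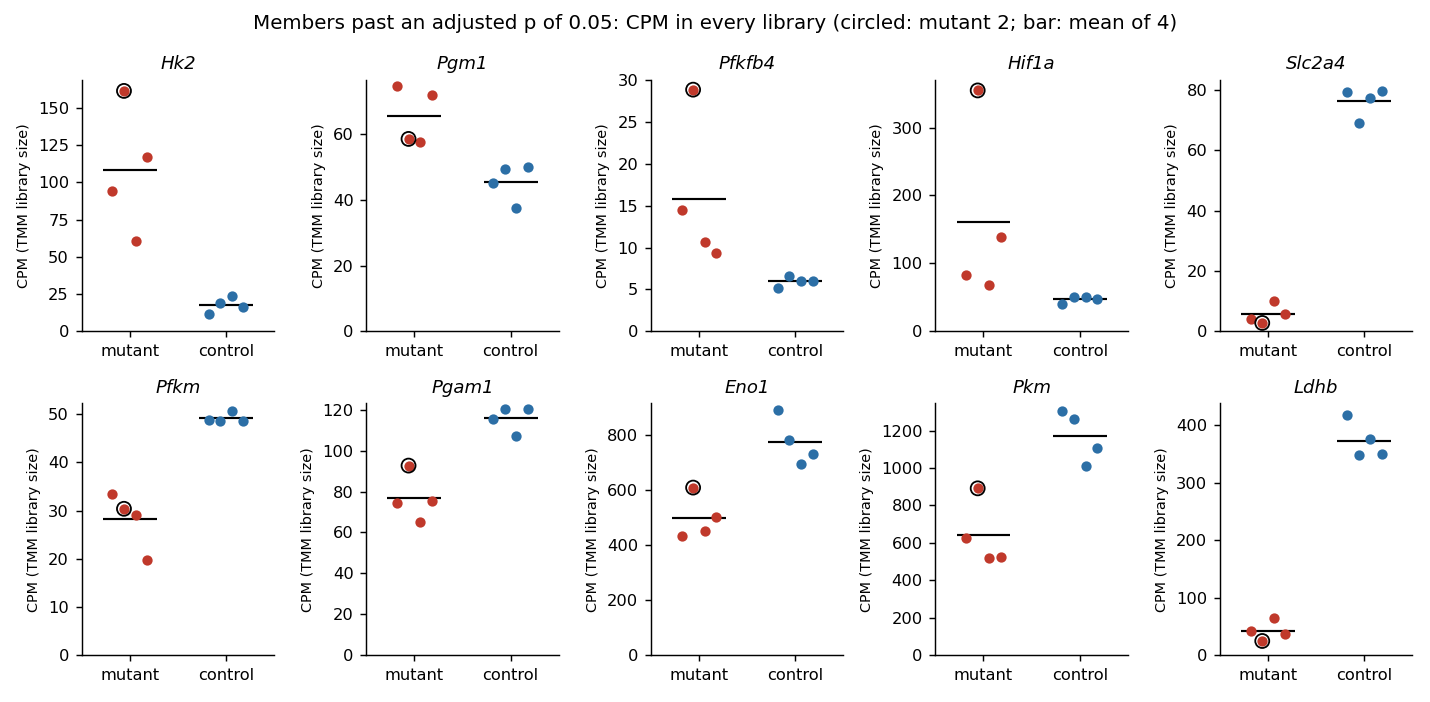
CPM of the 10 genes past an adjusted p of 0.05, 1 point per library, mutants left of controls, with a bar at the mean of 4 and mutant 2 circled; each axis starts at 0. The groups do not overlap in any panel; the mutant points of Hif1a and Pfkfb4 are spread widely by mutant 2, while those of Slc2a4 and Ldhb lie near the bottom of their axes.

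In the steps from aldolase to pyruvate kinase, the called changes were all decreases and all smaller than 2-fold, and every one of them depended on the scaling. Aldoa, the main aldolase, was at 736, 596, 656 and 683 CPM in mutants, against 1004, 981, 817 and 809 CPM in controls. Mutants lay wholly below controls, but the log2 fold change of -0.43 (SE 0.15) did not pass the test (adjusted p = 0.0755, edgeR) and was 0.26 with column totals. It held over 99% of aldolase FPKM in every library; Aldoc, the brain-enriched form, was at 3.29 to 5.59 CPM in mutants and 3.25 to 5.52 CPM in controls (log2 fold change 0.03, SE 0.27, adjusted p = 0.953). The second row named Aldoa, just upstream of the first, held at most 19 reads in a library (log2 fold change 1.04, SE 0.47, adjusted p = 0.146). Tpi1, triose phosphate isomerase, was at 253 to 291 CPM in mutants and 297 to 393 CPM in controls, without overlap, and did not pass the test either (log2 fold change -0.32, SE 0.13, adjusted p = 0.119; 0.37 with column totals).

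Gapdh, which encodes the dehydrogenase of the next step and is often used as a reference gene, was at 914, 1097, 685 and 875 CPM in mutants, against 1176, 1116, 870 and 880 CPM in controls (log2 fold change -0.18, SE 0.20, adjusted p = 0.548; 0.52 with column totals). Pgk1, phosphoglycerate kinase, was at 193 to 308 CPM in mutants and 197 to 244 CPM in controls (log2 fold change 0.14, SE 0.16, adjusted p = 0.585; 0.83 and called, adjusted p = 0.00709, with column totals). Neither gene separated the groups.

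Pgam1, phosphoglycerate mutase, fell (chromosome 19, 41911871 to 41918664, plus strand). It was at 74.4, 92.8, 65.0 and 75.5 CPM in mutants, against 116, 120, 107 and 120 CPM in controls. The highest mutant was mutant 2, and it was still below the lowest control. For Pgam1 the log2 fold change was -0.59 (SE 0.12, adjusted p = 0.0139, edgeR) with TMM, and 0.10 (adjusted p = 0.58) with column totals, so its direction holds relative to the bulk of genes and not relative to all reads. Its muscle-type relative Pgam2 was at 0.833 to 1.88 CPM in mutants and 1.32 to 2.83 CPM in controls (log2 fold change -0.57, SE 0.36, adjusted p = 0.287), and Pgam1 held 95.6% to 97.6% of the pair's FPKM in mutants and 95.1% to 97.6% in controls.

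Eno1, the general enolase, was at 431, 608, 450 and 500 CPM in mutants, against 891, 780, 692 and 731 CPM in controls (chromosome 4, 150236721 to 150248879, plus strand). All mutants were below all controls, mutant 2 the closest to them. Eno1 had a log2 fold change of -0.64 (SE 0.17, adjusted p = 0.0297, edgeR), and of 0.057 (adjusted p = 0.806) with column totals. It kept its call in only 1 of the 8 fits that left out 1 library, the one without mutant 2 (-0.75, adjusted p = 0.00167). Eno2, the neuronal enolase, was at 3.87, 10.4, 3.10 and 3.55 CPM in mutants and at 5.67 to 10.6 CPM in controls. Mutant 2 was again the high one, and the log2 fold change was -0.75 (SE 0.43, adjusted p = 0.24) with it and -1.33 (adjusted p = 0.00173) without it. Markers of enteric neurons and glia summed to 11.6 to 25.4 CPM in mutants and 54.2 to 73.9 CPM in controls, with 6 of 9 lower, and their part in the Eno2 values was not tested. Eno3, the muscle enolase, was at 5.71 to 9.90 CPM in mutants and 7.63 to 13.5 CPM in controls (log2 fold change -0.51, SE 0.24, adjusted p = 0.161). Eno1 held 92.9% to 95.4% of enolase FPKM in mutants and 92.8% to 95.8% in controls.

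Pkm, whose transcripts encode the muscle-type pyruvate kinases, was at 625, 891, 521 and 525 CPM in mutants, against 1306, 1262, 1010 and 1106 CPM in controls (chromosome 9, 59656368 to 59679375, plus strand). The groups did not overlap, with mutant 2 again nearest to the controls. For Pkm the log2 fold change was -0.87 (SE 0.22, adjusted p = 0.0258, edgeR). It was -1.07 (adjusted p = 0.000326) without mutant 2, the only library whose removal kept the call, and -0.18 (adjusted p = 0.537) with column totals. The 2 splice forms of Pkm share this row and were not separated.

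The largest change at the lactate step was in Ldhb, which encodes the heart-type subunit of lactate dehydrogenase, the form of oxidative tissues (chromosome 6, 142490249 to 142507957, minus strand). Ldhb was at 41.4, 24.3, 63.5 and 36.2 CPM in mutants, against 419, 349, 376 and 350 CPM in controls. The highest mutant, mutant 3, was far below the lowest control. Ldhb had a log2 fold change of -3.17 with an SE of 0.29 and an adjusted p of 0.000932 (edgeR), a 9.03-fold lower level in mutants, and it was -2.49 with column totals. Ldha, the muscle-type subunit, was at 466, 472, 443 and 509 CPM in mutants, against 589, 653, 344 and 427 CPM in controls. The control values spread on both sides of the mutant values (log2 fold change -0.09, SE 0.21, adjusted p = 0.785; 0.59 with column totals).

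The shares of the lactate dehydrogenase subunits did not overlap between the groups. Ldhb held 15.8%, 9.79%, 23.2% and 13.0% of lactate dehydrogenase FPKM in mutants, against 59.96%, 52.9%, 69.7% and 63.3% in controls. Ldha was 3.31 to 9.22 times as abundant per length as Ldhb in mutants and 0.435 to 0.889 times in controls. The summed FPKM of the pair was 157 to 176 in mutants and 343 to 442 in controls. The lower chief cell, parietal, surface pit and smooth muscle marker sums given beside Slc2a4 stand beside Ldhb as well. Their part in it was not tested.

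Lactate is carried out of cells by MCT1, encoded by Slc16a1, and MCT4, encoded by Slc16a3 and known from strongly glycolytic cells. Slc16a1 was at 88.8, 69.9, 73.7 and 65.9 CPM in mutants, against 67.9, 90.0, 44.1 and 61.6 CPM in controls, and the groups overlapped (log2 fold change 0.18, SE 0.21, adjusted p = 0.57; 0.86 and called, adjusted p = 0.0143, with column totals). Slc16a3 was at 8.13, 110.1, 10.4 and 21.98 CPM in mutants, against 9.40, 7.23, 5.29 and 7.64 CPM in controls. Mutant 2 was far above every other library and mutant 1 lay within the controls. The log2 fold change was 2.35 (SE 0.82, adjusted p = 0.0773), 0.87 (adjusted p = 0.0706) without mutant 2, and 3.06 and called (adjusted p = 0.0148) with column totals. Slc16a3 held 56.7% of the pair's FPKM in mutant 2 and 7.08% to 21.7% in the other mutants, against 6.27% to 10.3% in controls.

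Of the 4 hypoxia-linked genes, Hif1a rose, Vegfa separated the groups without passing the test, and Egln3 and Bnip3 did neither. Hif1a (chromosome 12, 73901375 to 73947530, plus strand) was at 83.2, 355, 68.3 and 139 CPM in mutants, against 39.6, 50.9, 49.7 and 47.5 CPM in controls. All mutants were above all controls, and mutant 2 was more than double the next. The log2 fold change was 1.78 (SE 0.50, adjusted p = 0.0392, edgeR) and 1.05 (SE 0.22, adjusted p = 0.00571) without mutant 2. It lost its call without any 1 control or without mutant 4 (largest adjusted p 0.109). Hif1a protein is controlled chiefly through its stability, which RNA does not measure.

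Vegfa, the vascular growth factor and a known HIF target, was at 142, 256, 134 and 150 CPM in mutants, against 102, 119, 124 and 118 CPM in controls. Mutants 1, 3 and 4 were a little above the controls and mutant 2 well above. The log2 fold change was 0.56 (SE 0.22, adjusted p = 0.101), 0.29 (adjusted p = 0.0505) without mutant 2, and 1.27 with column totals, where it passed (adjusted p = 0.00241). Egln3, a prolyl hydroxylase that marks HIF proteins for breakdown and is itself a HIF target, was at 42.5 to 83.3 CPM in mutants and 55.4 to 143 CPM in controls (log2 fold change -0.37, SE 0.32, adjusted p = 0.433). Bnip3, a HIF target active in the removal of mitochondria, was at 17.7 to 33.9 CPM in mutants and 32.1 to 42.1 CPM in controls. Only mutant 2 reached the control range, and the log2 fold change was -0.50 (SE 0.20, adjusted p = 0.108) with it and -0.64 (adjusted p = 0.0134) without it.

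White blood cell markers were high in the same library. Neutrophil markers summed to 41.7, 997, 23.3 and 64.9 CPM in mutants 1 to 4 and to 2.09 to 11.3 CPM in controls, with 4 of the 5 tested higher and Ly6g at 0 in controls. Macrophage markers summed to 374, 1577, 238 and 440 CPM in mutants and to 223 to 272 CPM in controls, with none of 8 called. Endothelial markers summed to 831 CPM in mutant 2 and 121 to 128 CPM in the other mutants, against 158 to 195 CPM in controls. Hk2, Slc2a3, Hk3, Pfkfb3, Slc16a3, Hif1a and Vegfa were among the genes whose highest value of all libraries was in mutant 2. The part of these cells in those values was not tested.

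**Figure D4:**
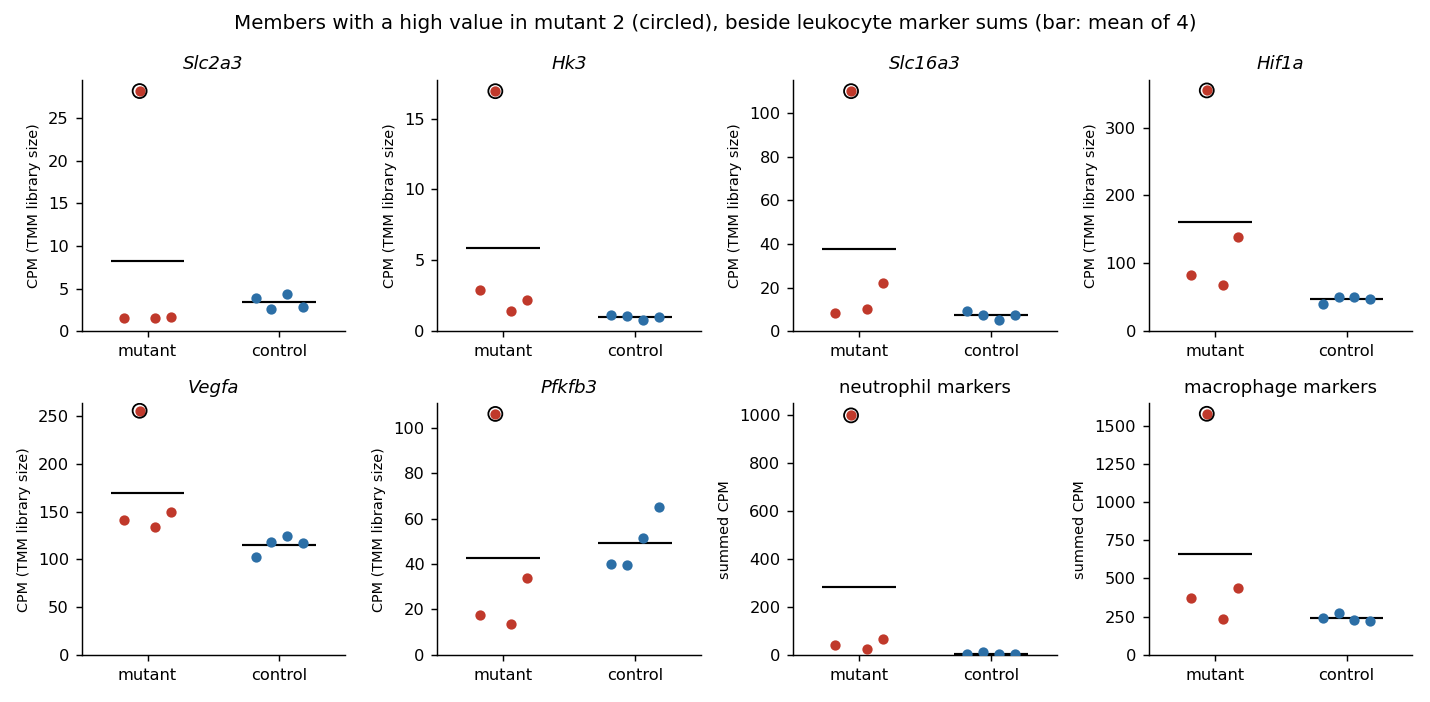
CPM of 6 genes whose highest value was in mutant 2 (circled), with the summed CPM of neutrophil and macrophage markers in the last panels; 1 point per library, bars at the mean of 4, axes from 0. In mutant 2 Slc16a3 reached 110.1 CPM and neutrophil markers 997 CPM, against at most 21.98 and 64.9 CPM in the other mutants; without that library the Hif1a points stay above the controls and those of Slc2a3 and Pfkfb3 lie below them.

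By level per length, the glycolytic enzymes that led in controls still led in mutants, with the exception of Ldhb. Aldoa averaged 228 ± 19.9 FPKM in mutants and 308 ± 35.2 FPKM in controls (SD, n = 4 each), and Gapdh 215 ± 40.5 FPKM in mutants and 243 ± 37.8 FPKM in controls; they ranked 1 and 2 of 34 in both groups, within their spread of each other in mutants. Ldhb ranked 12 in mutants at 26.2 ± 10.46 FPKM and 3 in controls at 236 ± 21.2 FPKM, where it was within the spread of Gapdh and of Pkm at 233 ± 26.8 FPKM. Slc2a4 ranked 28 in mutants at 1.60 ± 0.930 FPKM and 15 in controls at 21.8 ± 1.49 FPKM. Hk2 ranked 17 in mutants at 18.1 ± 7.05 FPKM and 25 in controls at 2.95 ± 0.883 FPKM. Hif1a ranked 11 in mutants at 27.3 ± 22.4 FPKM and 21 in controls at 7.91 ± 0.851 FPKM.

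**Figure D5:**
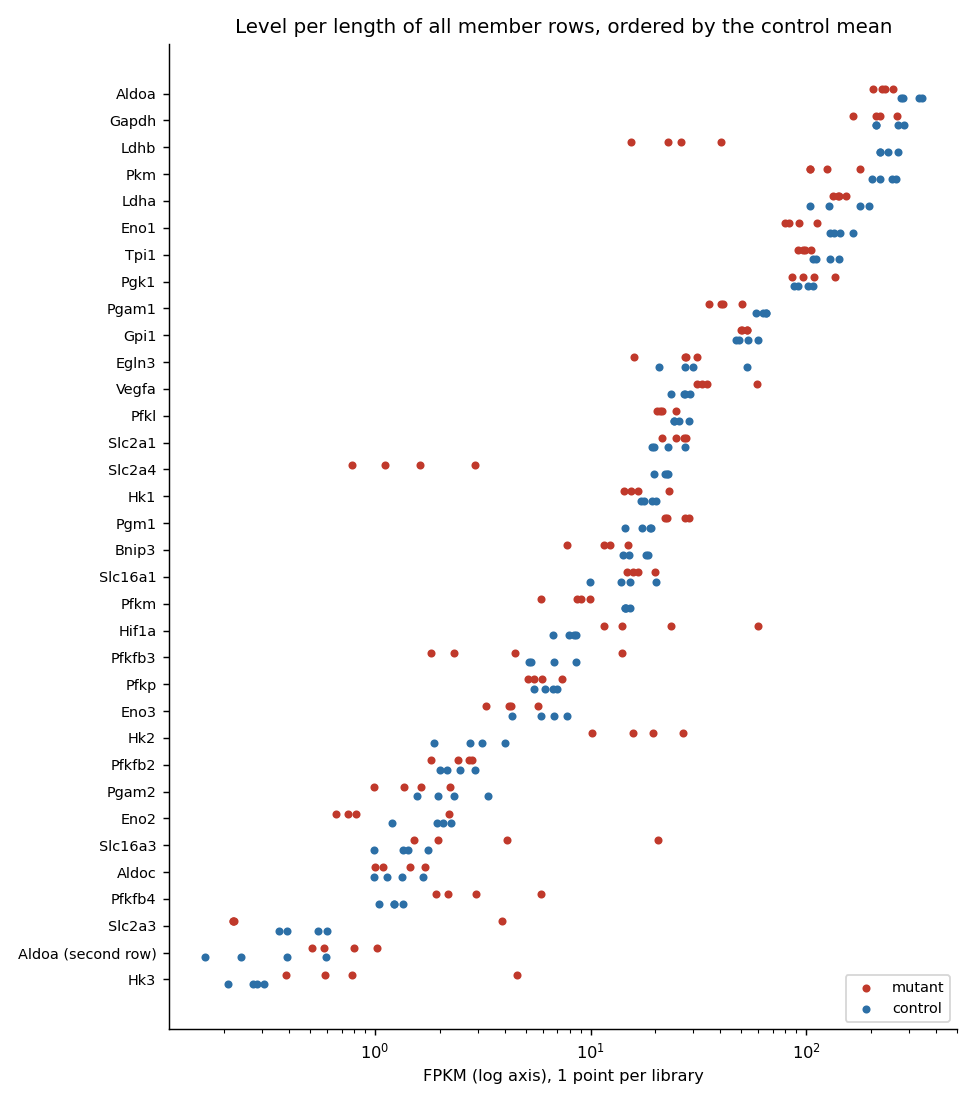
Deposited FPKM of all 34 rows on a log axis, 1 point per library, with rows ordered by the control mean and mutants drawn above controls within a row. Mutant points of Ldhb and Slc2a4 sit about a decade left of the control points, and those of Hk2 to the right of them.

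Promoter windows are printed here for the 4 called genes with the smallest adjusted p that carry the short core that HIF recognises. All 4 kept their calls in every fit that left out 1 library. The position of the core can thus be seen in a gene that rose and in genes that fell. Windows run from 250 bases before to 50 after the annotated start (RefSeq, GRCm38.p6). Of the 33 symbols, 31 had at least 1 window, with 46 windows in all; Slc2a3 and Slc2a4 had none. The windows of Ldhb (chr6:142507908-142508207, minus strand), Hk2 (chr6:82774405-82774704, minus strand), Pfkm (chr15:98092339-98092638, plus strand) and Pgam1 (chr19:41911621-41911920, plus strand) are written 5′ to 3′ along the gene, with capitals marking ACGTG or GCGTG on either strand.
Ldhb: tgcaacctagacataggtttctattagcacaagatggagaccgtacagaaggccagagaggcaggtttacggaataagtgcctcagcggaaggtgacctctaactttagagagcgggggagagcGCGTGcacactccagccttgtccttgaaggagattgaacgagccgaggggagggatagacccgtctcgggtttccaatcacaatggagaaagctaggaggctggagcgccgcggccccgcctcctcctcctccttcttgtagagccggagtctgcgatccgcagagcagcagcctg
Hk2: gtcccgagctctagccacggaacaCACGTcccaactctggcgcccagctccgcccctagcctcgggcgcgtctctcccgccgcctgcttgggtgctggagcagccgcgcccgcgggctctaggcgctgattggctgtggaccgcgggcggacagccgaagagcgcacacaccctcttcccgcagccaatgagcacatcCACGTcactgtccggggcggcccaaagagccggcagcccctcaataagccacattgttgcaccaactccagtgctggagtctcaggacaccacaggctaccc
Pfkm: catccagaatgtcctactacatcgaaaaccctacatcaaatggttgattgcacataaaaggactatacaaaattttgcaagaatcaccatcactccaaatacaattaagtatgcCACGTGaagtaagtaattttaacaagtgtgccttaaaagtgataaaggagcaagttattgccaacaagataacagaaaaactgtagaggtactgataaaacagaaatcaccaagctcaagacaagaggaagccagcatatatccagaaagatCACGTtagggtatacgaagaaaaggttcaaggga
Pgam1: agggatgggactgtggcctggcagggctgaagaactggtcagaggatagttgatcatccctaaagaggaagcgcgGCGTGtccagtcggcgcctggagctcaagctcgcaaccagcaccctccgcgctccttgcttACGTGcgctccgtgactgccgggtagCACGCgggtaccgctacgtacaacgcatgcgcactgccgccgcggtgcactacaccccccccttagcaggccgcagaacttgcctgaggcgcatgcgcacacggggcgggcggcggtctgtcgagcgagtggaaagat
Ldhb held 1 match, Hk2 2, Pfkm 3 (of which CACGTG is read as 1 on each strand) and Pgam1 3. Genes were chosen for printing by this core, so that they share it is no result; of the 4 Pfkm windows, the one at the start of the table's gene is shown, and another held no match. ACGTG or GCGTG was present in 37 of the 46 windows (80.4%), against 14380 of all 32851 windows (43.8%). It was present in 13 of 15 windows of called genes and in 24 of 31 windows (77.4%) of genes not called. The genes were gathered by name as glycolytic and hypoxia-linked, and HIF-1 is known for raising many of them. A high share with this core may thus be built into the choice and is no separate result. Windows are not independent, since some genes have several that overlap: Pfkm gave 4 of the windows and Eno1 gave 3. The 46 windows were also richer in G and C, with a median of 60.2% against 52.7% in all windows. Both cores contain the pair CG, of which the 46 windows held a median of 16, against 7 in all windows. The part of this composition in the share with a match was not tested. The core of the cyclic AMP response element, TGACG on either strand, was in 11 of 46 windows (23.9%), against 20.8% of all, and its full palindrome TGACGTCA, which contains TGACG, was in 1 (2.17%), against 1.79% of all. A match of 5 letters is a description of the sequence, not a binding site.

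Around these genes, 7 lists of related pathway genes had 98 genes tested, of which 10 (10.2%) were higher and 21 (21.4%) were lower, against 9.39% and 10.8% of all tested genes; the higher share is near that of all genes. The pyruvate dehydrogenase complex acts on pyruvate within the mitochondrion, and its kinases inhibit it. The complex and its regulators had 5 of 11 lower (45.5%, against 10.8% of all tested genes) and none higher. They were the complex's own subunits Pdhb (65.4 ± 5.50 CPM in mutants and 127 ± 8.10 CPM in controls, log2 fold change -0.96, adjusted p = 0.00137), Dld (log2 fold change -0.98, adjusted p = 0.00356), Dlat (log2 fold change -0.73, adjusted p = 0.00413) and Pdhx, and the kinase Pdk2. With column totals 1 was lower and 3 were higher. Among 14 other sugar and monocarboxylate transporters, 4 were lower (28.6%, against 10.8% of all tested genes) and 3 were higher (21.4%, against 9.39%). Both subunits of the mitochondrial pyruvate carrier were among the lower ones, Mpc2 at 39.0 ± 7.55 CPM in mutants and 101 ± 11.7 CPM in controls (log2 fold change -1.37, SE 0.16, adjusted p = 0.00176) and Mpc1 with a log2 fold change of -1.01 (adjusted p = 0.00494). Slc2a12, an insulin-responsive glucose transporter, also fell (log2 fold change -1.55, adjusted p = 0.00467), as did the monocarboxylate transporter Slc16a7. The largest of the 3 increases was in Slc2a13, a proton-coupled inositol transporter (log2 fold change 2.26, adjusted p = 0.0422; 1.35 and 0.0164 without mutant 2), and the others were in Slc5a1, the sodium-coupled glucose transporter of the intestine, and Emb, a chaperone of monocarboxylate transporters.

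Of 22 other genes regulated by HIF, 3 were higher and 3 were lower (13.6% each, near the 9.39% and 10.8% of all tested genes). Car9, a carbonic anhydrase used as a hypoxia marker and abundant in normal stomach, was at 117 ± 32.8 CPM in mutants and 249 ± 20.8 CPM in controls (log2 fold change -1.08, adjusted p = 0.0083). Gbe1, the glycogen branching enzyme, and Mxi1, a MYC antagonist, fell as well (log2 fold changes -0.88 and -0.59, adjusted p = 0.00856 and 0.0216), though Mxi1 was at 0.10 with column totals. Lox, which crosslinks collagen, had the largest increase, with 485 CPM in mutant 2 and 22.8 to 36.4 CPM in the other mutants, against 4.32 to 9.14 CPM in controls. Its log2 fold change was 4.31 (adjusted p = 0.0305) with all libraries and 2.04 (adjusted p = 0.00016) without mutant 2, and the call was lost without any 1 control; Car12 and Hilpda rose too. With column totals 13 of the 22 were higher and none lower. Of 9 HIF subunit and oxygen sensing genes, Egln1, the main oxygen-sensing hydroxylase, and Arnt2, a partner subunit, fell (log2 fold changes -0.45 and -1.28, adjusted p = 0.0208 and 0.0276) and none rose, a share of 22.2% lower against 10.8% of all tested genes; Egln1 was at 0.25 with column totals, and with column totals 5 were higher and none lower.

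Among 16 other glycolytic and sugar-entry enzymes, 4 were higher (25.0%, against 9.39% of all tested genes), namely Pgm2, Hkdc1, Gapdhs and Ldhd, and 3 were lower (18.75%, against 10.8%). Among the lower ones were Galt (log2 fold change -0.69, adjusted p = 0.0125) and Galk1, enzymes of galactose entry. Of 18 gluconeogenic and glycogen genes, Pygm, the muscle glycogen phosphorylase (log2 fold change -1.82, adjusted p = 0.00226), Pck1, the cytosolic phosphoenolpyruvate carboxykinase (log2 fold change -2.81, adjusted p = 0.00791), and Phka2 were lower (16.7%, against 10.8% of all tested genes) and none was higher. Of 8 pentose phosphate genes, Tktl1, a transketolase relative, was lower (0.0835 ± 0.0584 CPM in mutants and 2.07 ± 0.711 CPM in controls, adjusted p = 0.00157) and none was higher, a share of 12.5% lower against 10.8% of all tested genes. With column totals the higher and lower counts were 10 and 1 for the glycolytic list, 5 and 3 for the transporters, 9 and 2 for the glycogen list and 5 and 1 for the pentose phosphate list. Slc2a13, Lox, Mxi1, Egln1 and Arnt2 each lost their call in at least 1 of the 8 fits that left out 1 library.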

How the data were processed

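The authors deposited 2 tables, of raw read counts per gene and of FPKM. CASAVA, fastp, STAR 2.5 and featureCounts are named, without roles, in the submitters' processing notes, and the libraries were polyA selected and prepared with NEBNext Ultra reagents, as the labels' protocols state. Neither build nor strand setting is given in the sources used here; 53585 of 54495 genes had identical coordinates in GENCODE M21 (GRCm38), and positions are those of the count table. Of the 34 rows, 19 overlap another gene, and in 5 of them (Hk3, Pfkm, Pfkp, Pfkfb2 and the second Aldoa row) that gene holds at least 10% as many reads.

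A column headed SCI was read as control 1. Each library counted as 1 animal. Libraries of a group all differed beyond counting noise (chi-square over its degrees of freedom at least 14.8). Genes were kept by filterByExpr, scaled by TMM (factors 1.24 to 1.31 in mutants and 0.688 to 0.840 in controls) and compared by the quasi-likelihood test of edgeR with robust estimation (edgeR 4.0.16, limma 3.58.1, DESeq2 1.42.0, R 4.3.3), mutant over control, with p-values adjusted over 15862 genes and a threshold of 0.05; the scripts were tested on simulated data. The library size behind the deposited FPKM was 1.00 to 1.01 times the TMM size, so FPKM gives no separate scaling. Isozyme shares are percent of a family's summed FPKM, with no test.

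Deviations from the group mean hardly correlated between mutants and controls of the same number (-0.0618 to 0.0688), and the main fit used no pairing. Such correlations cannot exclude pairing, and forestomach squamous markers were high in mutant 3 and control 3 alone. The genes, the 7 pathway lists and the marker lists were chosen with earlier results of these data known. All 33 symbols are described; from each pathway list the 3 called genes with the smallest p, and the largest change in the rarer direction, are given, other called genes being named without values, and 1 gene is not reported here. Promoters are shown for the 4 called genes with the smallest adjusted p that hold the HIF core in a window. For each, the window with the core nearest the start of the table's gene was taken. Protein sequences were not used here.

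Alternatives were other scalings, filters, tools, thresholds, the replicate block, each library left out, and libraries with keratinocyte markers left out. The fit without control 3, mutant 2 and mutant 3, shares from counts per length and the cyclic AMP motif were added after seeing the data.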

Additional observations from a re-analysis of the deposited data

Results flagged for a closer look

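Of 84 groups of 4 libraries checked, 11 had a library whose gap to the nearest other passed Dixon's 95% limit, and chance gives about 1 in 20. Mutant 2 was that library for 5 of the 6 flagged members and was the highest each time. Slc2a3 was at 28.2 CPM in mutant 2 and 1.59 to 1.62 CPM in the other mutants. Hk3 was at 16.9 CPM in mutant 2 and 1.42 to 2.90 CPM in the others. Eno2 was at 10.4 CPM in mutant 2 and 3.10 to 3.87 CPM in the others. Slc16a3 was at 110.1 CPM in mutant 2 and 8.13 to 21.98 CPM in the others. Vegfa was at 256 CPM in mutant 2 and 134 to 150 CPM in the others. Pfkm was at 50.7 CPM in control 3 and 48.5 to 48.9 CPM in the other controls, a small gap beside a narrow range.

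Among marker sums, neutrophil markers reached 997 CPM in mutant 2, against 23.3 to 64.9 CPM in the other mutants, and 11.3 CPM in control 2, against 2.09 to 3.51 CPM in the other controls. Macrophage markers reached 1577 CPM in mutant 2, against 238 to 440 CPM in the other mutants. Forestomach squamous markers reached 721 CPM in mutant 3, against 1.53 to 3.46 CPM in the other mutants, and 271 CPM in control 3, against 1.49 to 1.84 CPM in the other controls.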

How the results depend on the processing

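The 3 largest changes, in Slc2a4, Ldhb and Hk2, kept their direction and call with column totals and without each library, and the share differences, mutant minus control, ranged over single left-out libraries from -45.7 to -41.7 percentage points for Slc2a4, 31.0 to 36.9 for Hk2 and -48.9 to -43.3 for Ldhb. The 4 higher members became 16 with column totals, 2 with limma-trend on log2(FPKM + 1) and 1 without its filter, 1 with the replicate block, 1 without control 3 and mutant 3, 1 at an adjusted p under 0.01, and 1 to 5 without single libraries. The 6 lower members became 2 with column totals, 12 with limma-voom, 2 without control 3 and mutant 3, 2 at an adjusted p under 0.01, 2 with a fold of at least 2, and 4 to 11 without single libraries; 11 was without mutant 2. Of all genes, 1489 were higher: 9412 with column totals, 2309 with DESeq2, 2601 with voom, 747 with the block, 827 with FPKM unfiltered, 587 without control 3 and mutant 3, 380 at 0.01, 863 at 2-fold and 665 to 2447 without single libraries. The 1719 lower became 724 with column totals, 3066 with voom, 1077 with the block, 823 without control 3 and mutant 3, 667 at 0.01, 1047 at 2-fold and 1018 to 2953 without single libraries. The replicate block (correlations -0.0618 to 0.0688, which cannot exclude pairing) kept 5 of 6 lower and 1 of 4 higher member calls. With column totals 15 members below 0 came above 0 and 12 uncalled members were called higher. Log2 fold changes past the threshold in at least 1 of the fits reversed for Slc2a3 without mutant 2 (-1.10, against up to 1.60 without another library) and, with column totals, for Hk1 (0.59), Gpi1 (0.66), Pfkl (0.46), Pfkp (0.61), Pgam1 (0.10) and Eno1 (0.057); the column totals move all genes by construction, and other causes were not tested. Without control 3, mutant 2 and mutant 3, a choice made after seeing the data, 5 members were higher and 8 lower. With 4 animals a group, genes with few reads such as Hk3, Aldoc and Pgam2 have wide errors.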
